A study of Mus musculus with 4 samples.

Results

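The MYC and MAX network was described through 10 genes, Myc, Mycn, Mycl, Max, Mxd1, Mxd3, Mxd4, Mxi1, Mnt and Mlx, a set given by name. They were found by matching the exon identifiers of a deposited expression table to the GENCODE M21 annotation of the mouse genome (mm10). All 10 genes had at least 1 exon in the table, out of 22835 genes, and together they held 78 of 226463 exons. Of the 10, 8 had an exon above 10 RPKM, and Mycn and Mycl did not. RPKM is the number of reads on an exon scaled to its length in kilobases and to the reads of the library.

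The study asked how cells of different origin respond to Mitf, the transcription factor that directs the melanocyte lineage. It sequenced RNA from 4 cultures, of which 3 libraries are described here: wild-type mouse embryonic fibroblasts (MEFs) at passage 3 (MEF), Mitf knock-in MEFs at passage 5 without doxycycline (Dox (-)), and knock-in MEFs at passage 5 after 6 days of doxycycline (Dox (+)). Primary mouse melanocytes at passage 5 were not analysed here. Both knock-in cultures carry M2rtTA at ROSA26 and a doxycycline-responsive Mitf, the melanocyte isoform, downstream of Col1a1. They come from chimeric embryos made with 1 correctly targeted embryonic stem cell clone, so host cells can be present. The targeted cells also carry mCherry and puromycin resistance, by which they can be purified, and whether this was done for the sequenced cultures is not given. Strain, sex and embryo number are not given in the labels, and all 3 cultures were grown in DMEM with 10% FBS. The values listed as MEF differ, gene by gene, from those printed by the study for its MEF culture, so that library is named only by its label. With 1 library per condition no test between conditions was possible: intervals below are exact 95% intervals for counting error, they compare libraries and not conditions, and they hold no error between cultures.

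Myc, Mycn and Mycl encode the activating transcription factors of the network. Each binds DNA as a pair with MAX, mainly at E-boxes, and raises genes of ribosome production, metabolism and growth. The MXD proteins, MXI1 and MNT pair with the same MAX, bind the same sites and recruit SIN3 and histone deacetylases. MLX is a MAX-like partner that pairs with MXD1, MXD4, MNT and the glucose-responsive factors MLXIP and MLXIPL. MITF itself is a basic helix-loop-helix leucine zipper protein that also binds E-boxes, as a dimer within its own family, and is not a MAX partner.

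The close kinship of the repressors is visible in their gene structure. In Mxd1, Mxd3, Mxd4 and Mxi1 a coding exon of 30 bp is followed by one of 115 bp, a pair found in coding transcripts of 5 of 21901 coding genes, the fifth being Il3ra. The 30 bp exons are shown because they are the same stretch in each repressor and because, as described below, so short an exon gave the highest RPKM of Mxd1, Mxd4 and Mxi1. They lie at chr6:86663071-86663100 (Mxd1, minus strand), chr13:55328614-55328643 (Mxd3, minus), chr5:34184314-34184343 (Mxd4, minus) and chr19:53346451-53346480 (Mxi1, plus) of mm10. Capitals mark the 17 of 30 bases that are the same in all 4 genes, and the sequences are read from the GENCODE transcripts.
Mxd1: aTCaactCACAAtGAaaTgGAaAAGaaCaG
Mxd3: gTCtgtgCACAAcGAgcTgGAgAAGcgCaG
Mxd4: gTCttcaCACAAcGAacTaGAaAAGcaCaG
Mxi1: aTCtacaCACAAtGAgtTgGAaAAGaaCcG
Mxd1 and Mxi1 were the closest pair, with 25 of 30 bases identical, and Mxd1 and Mxd3 the most distant, with 19. Max has an exon of 27 bp, chr12:76961263-76961289 on the minus strand, entirely coding, which also gave its highest RPKM in Dox (+).
Max: gaagagcaaccgaggtttcaatctgcg

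The E-box CACGTG was looked for in the promoters that RefSeq lists for GRCm38.p6, windows of 300 bp that reach 50 bases past the start of the gene. The motif reads the same on both strands. It was present in 4 of 11 windows of 9 members, those of Mxd4, Mnt, Mlx and Max, and in 7.15% of all 32851 windows. Myc had no entry. The stretches around the motif are shown because these 4 genes did not move together between the libraries. They are chr5:34187897-34187956 for Mxd4 (minus strand), chr11:74830774-74830833 for Mnt (plus), chr11:101087223-101087282 for Mlx (plus) and chr12:76962246-76962278 for Max (minus), with the E-box in capitals.
Mxd4: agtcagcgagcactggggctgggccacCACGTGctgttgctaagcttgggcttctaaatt
Mnt: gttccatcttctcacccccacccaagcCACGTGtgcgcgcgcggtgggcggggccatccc
Mlx: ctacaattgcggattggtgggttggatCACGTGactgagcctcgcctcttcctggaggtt
Max: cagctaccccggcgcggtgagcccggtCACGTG
The motif began 219 bases before the start of Mxd4, 123 before that of Mnt, 40 before that of Mlx and 3 before that of Max. In Mlx it was part of TCACGTGA, which was in 0.974% of all windows and in no other member's window. A match says nothing about binding.

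The libraries held 45000000 reads for MEF and Dox (-) and 44000000 for Dox (+), as recovered from the steps between low RPKM values, and 96.8 to 97.1% of low values came out within 0.02 of a whole read. On an exon of 150 bp, 3 reads corresponded to 0.444 RPKM in MEF and Dox (-) and 0.455 RPKM in Dox (+). Mitf itself was at 1.52 RPKM in MEF, 30.8 in Dox (-) and 1544 in Dox (+). The labelled cell types were checked with marker lists. The 8 fibroblast markers summed to 19670 RPKM in MEF, 52660 in Dox (-) and 13060 in Dox (+), a sum led by collagens and Postn. Thy1 was higher in Dox (+) than in Dox (-), at 3608 and 2014 RPKM, and 4 of 8 were higher in Dox (+) than in MEF. Of 9 melanocyte markers, Tyrp1 and Mlana reached 109.6 and 133.1 RPKM in Dox (+) from under 1 RPKM in Dox (-) and MEF, and Pmel went from 4.96 to 12.96 RPKM between Dox (-) and Dox (+). The others stayed under 10 RPKM, with Dct and Slc45a2 under 1 RPKM in every library, Sox10 at 6.69 and 1.66 RPKM, and Oca2 at 0 in all 3 libraries. The 8 macrophage markers summed to 49.6 RPKM in MEF, 12350 in Dox (-) and 448.3 in Dox (+), and all 8 were more than 4-fold lower in Dox (+) than in Dox (-). Of them, Fcgr1 was at 0 in MEF and none was at 0 in Dox (+). In such mixed cultures, fewer cells of a type and less RNA per cell cannot be told apart.

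To compare levels between genes, reads were summed over the exons of 1 coding transcript and divided by their length. On this scale Max and Mxd4 were the most abundant members in MEF and Dox (-), and Max remained first in Dox (+). In Dox (-) the order was Max at 98.4 RPKM, Mxd4 at 97.4, Mlx at 42.6, Myc at 21.5, Mxi1 at 19.2, Mnt at 14.2, Mxd1 at 5.22, Mycl at 2.53, Mxd3 at 2.24 and Mycn at 0.432 RPKM. The counting intervals of Max and Mxd4 overlapped there, 96.2 to 100.6 against 95.9 to 98.9 RPKM, as did those of Mycl and Mxd3. In Dox (+) Mlx was at 67.0 RPKM, Myc at 56.8, Mxd4 at 53.9 and Mxi1 at 49.8. The intervals of Myc and Mxd4, 55.3 to 58.2 and 52.8 to 55.1 RPKM, did not overlap, but their order depended on the exons used. On the last exon Myc was at 78.1 and Mxd4 at 47.6 RPKM in Dox (+). On the highest exon Myc was at 129.4 and Mxd4 at 258.3 RPKM. The sums of Mxd4 and Mlx included last exons that overlap other genes. For Mxd3 the sum left out an exon that overlaps another gene. For Mxi1 it left out the 3' exon of 4238 bp, which was at 9.62, 5.68 and 11.9 RPKM in MEF, Dox (-) and Dox (+). With that exon the level of Mxi1 would be lower in each library, so its place in the order depends on this choice. A read that spans a junction can be counted on both exons, so these intervals are somewhat too narrow.

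**Figure D1:**
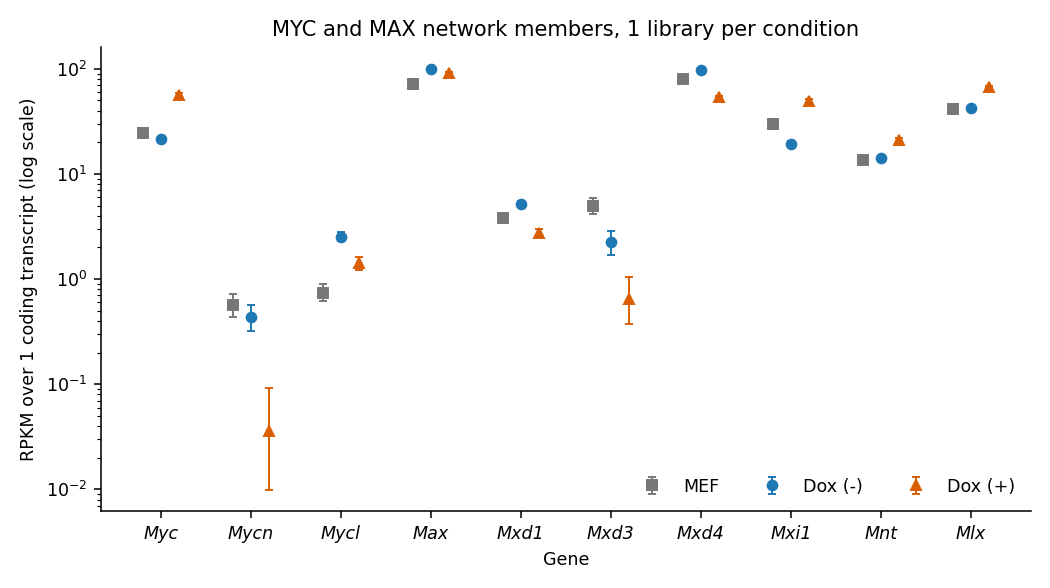
Level of each member in the 3 libraries, in RPKM over the exons of 1 coding transcript on a log axis, with exact 95% counting intervals as bars. Mxd3 is summed without its last exon and Mxi1 without its 3' exon. Myc, Mxi1, Mnt and Mlx have their highest point in Dox (+), whereas Mxd1, Mxd3, Mxd4 and Mycn have their lowest there.

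For the comparison of libraries the level of a gene was that of its highest exon in each library, which for Myc and Max was not the same exon in all 3, and changes are given as differences of log2(RPKM + 1), a scale that understates the change of low genes. Between Dox (+) and Dox (-) no member was above 10 RPKM and more than 4-fold apart, a call made for 7.05% of the 13307 genes above 10 RPKM. Above a 2-fold difference, Myc and Mxi1 were higher in Dox (+), 2 of 8 members against 10.8% of genes, and no member was lower, against 11.1% of genes. Mxd3 was among the 8 only through its last exon, which overlaps the gene Prelid1. Its exons free of that overlap were under 10 RPKM in both libraries, with a pooled ratio of Dox (+) to Dox (-) of 0.290 (0.159 to 0.503). The median log2 fold change was 0.33 over the 10 members and 0.46 over the 8 above 10 RPKM, and 0.23 over all genes, so that a gene at the middle of the distribution was itself somewhat higher in Dox (+). Without this shift, with the libraries rescaled to equal medians over 11073 genes above 10 RPKM in all 3, the median over the members was 0.05.

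Of the 8 members above 10 RPKM, Myc had the largest log2 fold change between Dox (+) and Dox (-) on the highest exon. This was an exon of 111 bp, chr15:61987507-61987617, in both Dox libraries, with 40.8 RPKM in MEF, 48.0 in Dox (-) and 129.4 in Dox (+). MEF had its own highest value, 55.3 RPKM, on a 3' exon, chr15:61989346-61990067, where Dox (-) was at 45.8 and Dox (+) at 106.9 RPKM. MEF and Dox (-) lay close together, in an order that depended on the exon, and Dox (+) stood above both. The log2 fold change from Dox (-) was 1.41, larger than in 96.0% of genes above 10 RPKM, and 1.13 after rescaling. Summed over the 3 exons of the transcript, Myc had 2575 reads in MEF, 2267 in Dox (-) and 5840 in Dox (+), a ratio of Dox (+) to Dox (-) of 2.63 (interval 2.51 to 2.77). Against MEF the ratio was 2.32 (2.21 to 2.43).

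All 3 exons of the Myc transcript were higher in Dox (+), by different factors. The first exon (chr15:61985391-61985951), had 206, 248 and 688 reads in MEF, Dox (-) and Dox (+). The middle exon, where the main reading frame begins (chr15:61987507-61988278), had 498, 503 and 1699 reads. The last exon, which encodes the helix-loop-helix and zipper (chr15:61989346-61990350), had 1871, 1516 and 3453 reads. The ratios of Dox (+) to Dox (-) were 2.84 (2.45 to 3.29), 3.45 (3.13 to 3.82) and 2.33 (2.19 to 2.48). Over all 12 listed Myc positions with more than 20 reads, many of which share reads, the ratio ran from 2.33 to 3.45 and each interval lay above 1. The RPKM of the last exon was 2.89, 2.32 and 1.56 times that of the middle exon in MEF, Dox (-) and Dox (+).

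Such a gradient along a gene was not particular to Myc. Among 7849 genes the first exon had a larger fold from Dox (-) to Dox (+) than the last exon in 84.3%, with a median difference of 0.47 on the log2 scale. Folds from 5' exons alone were therefore larger than those from 3' exons in most genes. From MEF to Dox (-) the median difference was 0.33 and from MEF to Dox (+) 0.82. In Myc the difference between first and last exon was 0.28, smaller than in most genes, as 33.5% of genes had a smaller one. On the last exon alone Myc was at 41.4, 33.5 and 78.1 RPKM and differed by 1.20 between Dox (+) and Dox (-), larger than in 96.5% of 8326 genes, whose median was 0.05. Myc was the 1 member of 6 above 10 RPKM that was more than 2-fold higher on the last exon, against 6.46% of genes. No member was more than 2-fold lower, against 10.7%. Mxi1 was not among the 6, having no value for the last exon of its transcript. The 3' exon listed for Mxi1 was at 5.68 RPKM in Dox (-) and 11.9 in Dox (+), a ratio of 2.09. Mxd3 was among the 6 through an exon that overlaps the gene Prelid1.

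Mycn and Mycl, whose products have restricted roles in neural and other developing tissues, were low. Mycn had 62 reads on its last exon in MEF, 42 in Dox (-) and 4 in Dox (+), which is 0.909, 0.616 and 0.0600 RPKM. The ratio of Dox (+) to Dox (-) was 0.0974 (0.0254 to 0.268), so Mycn was lowest in the library in which Myc was highest. Mycl had 117, 391 and 203 reads on its last exon, or 1.01, 3.37 and 1.79 RPKM, with a ratio of Dox (+) to Dox (-) of 0.531 (0.446 to 0.631) and of Dox (-) to MEF of 3.34. On its first exon Mycl had 0, 7 and 14 reads, the opposite order of Dox (-) and Dox (+). Both genes stayed under 10 RPKM in every library. The order of Mycl on its last exon, Dox (-) above Dox (+) above MEF, was also the order of the summed macrophage markers, whose part in the Mycl values was not tested.

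Max, the common partner, was nearly level. Its highest exon was one of 124 bp in MEF and Dox (-), with 156.3, 200.7 and 195.2 RPKM in MEF, Dox (-) and Dox (+), and the 27 bp exon in Dox (+), with 111.9, 190.1 and 232.3 RPKM. The sign of the difference between Dox (+) and Dox (-) depended on the exon. The 27 bp exon had 136, 231 and 276 reads and a ratio of 1.22 (1.02 to 1.46), while the last exon, chr12:76937269-76938755, had 4088, 5633 and 4894 reads and a ratio of 0.889 (0.855 to 0.923). The 2 exons between them had ratios of 0.993 and 0.973, with intervals that included 1. Over 4 exons of the transcript the ratio was 0.921 (0.891 to 0.951). The log2 fold change of 0.21 from the highest exon of each library, which sets one of these exons against the other, turned to -0.07 after rescaling and to -0.17 on the last exon. Compared with MEF, Max was higher in both knock-in libraries on all 5 exons.

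Myc relative to Max, a ratio within a library that its scaling cannot change, was 0.342 in MEF, 0.219 in Dox (-) and 0.627 in Dox (+). Myc relative to Mxd4 was 0.304, 0.221 and 1.05. These ratios and the shares that follow depend on the exons summed. On the last exon Myc was at 41.4, 33.5 and 78.1 RPKM in MEF, Dox (-) and Dox (+), and Max at 61.1, 84.2 and 74.8 RPKM. Of the summed RPKM of the 10 members, the 3 MYC genes held 9.51%, 8.07% and 16.9%. The MXD genes Mxd1, Mxd3 and Mxd4 held 33.0%, 34.5% and 16.7%. Within the repressors Mxi1 and Mnt moved the other way, from 6.31% to 14.5% and from 4.66% to 6.15% between Dox (-) and Dox (+), and the repressors as a whole held 45.5% and 37.3%. The Mxi1 sum left out its 3' exon of 4238 bp, and with that exon the Mxi1 share would be lower.

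**Figure D2:**
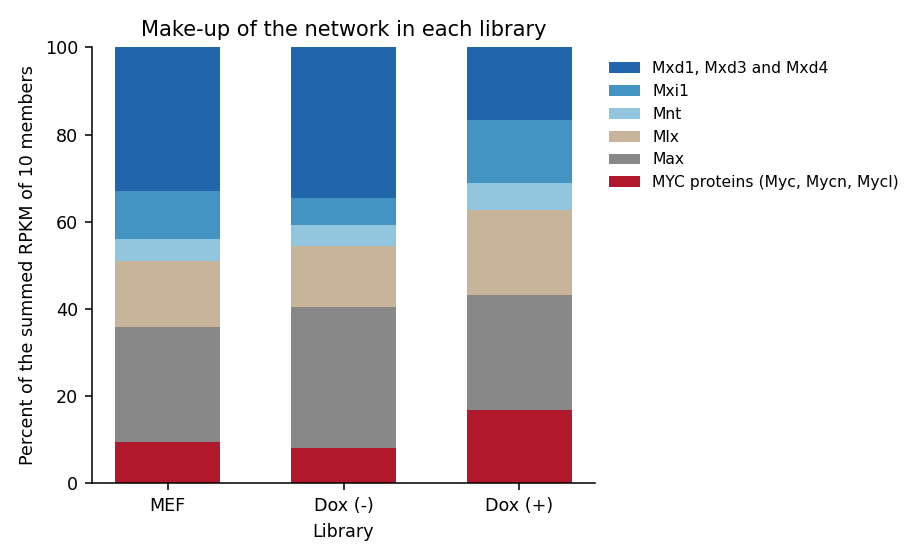
Share of each group of genes in the summed RPKM (1 coding transcript per gene) of the 10 members, as percent, in the 3 libraries. Mxd3 is summed without its last exon and Mxi1 without its 3' exon. The MYC genes hold 8.07% in Dox (-) and 16.9% in Dox (+), and Mxd1, Mxd3 and Mxd4 together hold 34.5% and 16.7%.

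Mxd4 and Mxd1 were lower in Dox (+). MXD1 and MXD4 are repressors that accumulate as cells leave the cycle and differentiate. Mxd4 was at 360.7 RPKM in MEF, 463.7 in Dox (-) and 258.3 in Dox (+) on its 30 bp exon, with 487, 626 and 341 reads. Dox (+) was the lowest library and Dox (-) the highest. Summed over 6 exons, Mxd4 had 14042, 16969 and 9191 reads, with a ratio of Dox (+) to Dox (-) of 0.554 (0.540 to 0.568) and of Dox (+) to MEF of 0.669 (0.652 to 0.687).

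The difference had the same direction along Mxd4. On 6 exon positions with more than 20 reads the ratio of Dox (+) to Dox (-) ran from 0.542 to 0.657, each interval lying below 1. Its first exon was almost without reads, with 0, 6 and 5, against 299, 387 and 210 on the next exon. The last exon, chr5:34173887-34177149, overlaps the opposite-strand gene Gm42846 over 1001 of its 3263 bases, and the kit used does not mark strand. An alternative Mxd4 3' exon free of that overlap, chr5:34176579-34177149, had 1654, 2130 and 1368 reads and the ratio of 0.657.

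Mxd1 showed the same order at a lower level. Its 30 bp exon was at 20.7, 28.1 and 14.4 RPKM in MEF, Dox (-) and Dox (+), from only 28, 38 and 19 reads, and it was the only Mxd1 exon above 10 RPKM. The last exon of 4038 bp, chr6:86647042-86651079, gave 672, 930 and 477 reads and a ratio of Dox (+) to Dox (-) of 0.525 (0.469 to 0.586). All 5 exons with more than 20 reads were lower in Dox (+), 4 of them with an interval below 1. The log2 fold changes of Mxd1 and Mxd4 were -0.92 and -0.84 on the highest exon, below those of all but 11.6% and 12.5% of genes, and -0.73 and -0.87 on the last exon. In Mxd1 and Mxd4, as in the macrophage list, Dox (-) was the highest of the 3 libraries. Both genes were also lower in Dox (+) than in MEF, where the macrophage markers summed to less than in Dox (+). The part of those cells in the values of Mxd1 and Mxd4 was not tested.

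Mxi1, a repressor of the same family and with the same exon pair, went the opposite way. Its 30 bp exon was at 116.3 RPKM in MEF, 88.9 in Dox (-) and 219.7 in Dox (+). Dox (+) was the highest library by a wide gap and Dox (-) the lowest. Over 5 exons, without its 3' exon, Mxi1 had 1213, 781 and 1986 reads. The ratio of Dox (+) to Dox (-) was 2.60 (2.39 to 2.83) and that of Dox (+) to MEF 1.67 (1.56 to 1.80).

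The Mxi1 ratio was steeply graded along the gene. The 5' exon at chr19:53310518-53310973 had 31, 25 and 136 reads and a ratio of Dox (+) to Dox (-) of 5.56 (3.61 to 8.90). A pair of alternative 5' exons downstream of it had 28, 19 and 104 reads and 35, 26 and 132 reads, with ratios of 5.60 and 5.19, so no change in the choice among these 5' exons was seen at this depth. The exon of 115 bp had a ratio of 2.36 (2.03 to 2.76). The 3' exon of 4238 bp, chr19:53371573-53375810, had 1834, 1083 and 2214 reads and a ratio of 2.09 (1.94 to 2.25), the lowest of 8 positions. That exon overlaps the opposite-strand gene Gm10197 over 194 bases.

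Mnt and Mlx, the widely expressed members, were moderately higher in Dox (+). MNT is the repressor that is present in both resting and cycling cells. The highest Mnt value, 320.0, 480.0 and 663.6 RPKM, came from an exon of 5 bp with 72, 108 and 146 reads. Reads are longer than this exon and are counted on it once they overlap it, so its RPKM does not give the level of Mnt. Over the transcript Mnt was at 13.5, 14.2 and 21.2 RPKM, with a ratio of Dox (+) to Dox (-) of 1.50 (1.43 to 1.57). The ratio was 2.89 (1.998 to 4.254) on the first exon and 1.38 (1.30 to 1.46) on the last. The Mnt last exon held 13.9, 8.58 and 4.09 times the RPKM of the first in MEF, Dox (-) and Dox (+).

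Mlx had 3627, 3769 and 5797 reads over its transcript, a ratio of Dox (+) to Dox (-) of 1.57 (1.51 to 1.64). MEF and Dox (-) were close, with a ratio of 1.04 whose interval, 0.993 to 1.09, included 1. The first Mlx exon, chr11:101087300-101087529, had 141, 106 and 295 reads and a ratio of 2.85 (2.27 to 3.59). The last, chr11:101091109-101092207, had 1306, 1438 and 1990 reads and a ratio of 1.42 (1.32 to 1.52), and it overlaps the opposite-strand gene Psmc3ip over 385 bases. Without that exon the Mlx ratio was 1.67 (1.59 to 1.76). The differences between first and last exon, 1.06 in Mnt and 1.00 in Mlx, were larger than in 86.2% and 84.4% of genes. On the last exon the log2 fold changes were 0.44 for Mnt and 0.49 for Mlx, both above the 0.05 of the median gene.

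**Figure D3:**
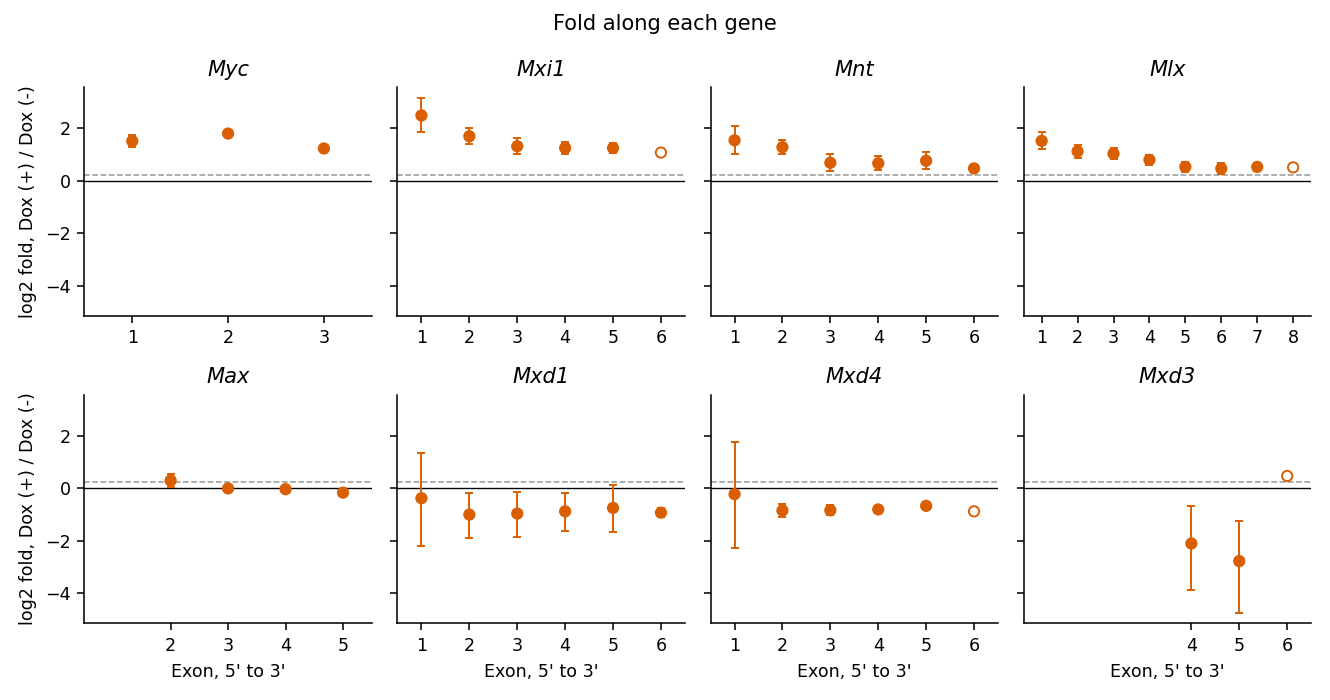
Log2 ratio of depth-scaled reads, Dox (+) to Dox (-), for exons with more than 3 reads in both libraries, in 5' to 3' order along each gene, with exact 95% counting intervals as bars. Open circles are exons that overlap another gene, and the dashed line is the median gene at 0.23. The ratios of Mxi1, Mnt and Mlx decline from 5' to 3', whereas those of Mxd4 stay between 0.542 and 0.627 on the linear scale from the second exon on.

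The exons of Mxd3 went in different directions. MXD3 is the family member found in cycling cells, in S phase. Its highest exon, the last one at chr13:55325168-55325898, was at 61.4, 41.2 and 56.8 RPKM, with 2019, 1355 and 1828 reads and a ratio of Dox (+) to Dox (-) of 1.38 (1.29 to 1.48). On the opposite strand this exon overlaps the end of Prelid1 over 105 bases. Prelid1, a gene of mitochondrial lipid transport, had 6136, 4024 and 7289 reads on its own last exon, and reads of the 2 genes cannot be told apart where they overlap.

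The 5 other Mxd3 exons gave the opposite direction. Together they had 133 reads in MEF, 60 in Dox (-) and 17 in Dox (+), a ratio of Dox (+) to Dox (-) of 0.290 (0.159 to 0.503) and of Dox (+) to MEF of 0.131 (0.0739 to 0.217). The exon next to the last had 42, 28 and 4 reads and the 115 bp exon 50, 22 and 5. MEF was highest and Dox (+) lowest on both. The 30 bp exon shown above had 22, 2 and 3 reads. The direction listed for Mxd3 therefore depended on the exon. On the 115 bp exon the ratio of Dox (+) to Dox (-) was 0.232 (0.0688 to 0.629). The log2 fold change of 0.46 came from the last exon, where reads of Prelid1 cannot be told apart. The last exon of Prelid1 was itself at 307.8, 201.9 and 373.9 RPKM in MEF, Dox (-) and Dox (+).

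**Figure D4:**
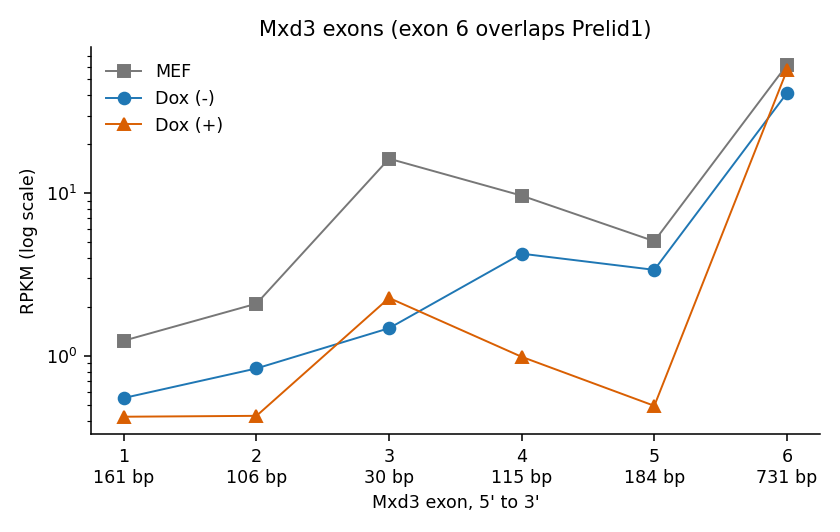
RPKM of the 6 Mxd3 exons in the 3 libraries on a log axis, in 5' to 3' order with their lengths. The last exon, which overlaps Prelid1, lies at 41.2 to 61.4 RPKM in all 3 libraries, while on the exon before it Dox (+) is far below the others, with 4 reads against 28 and 42.

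Between Dox (-) and MEF no member was called at 4-fold, against 9.47% of 13234 genes, and none at 2-fold, against 17.3% of genes higher and 7.93% lower in Dox (-). The members had a median log2 difference of 0.12, and all genes one of 0.01. Between Dox (+) and MEF no member was called at 4-fold, against 9.95% of 12941 genes. Myc and Mnt were more than 2-fold higher, 2 of 8 members, against 20.2% of genes, and none was more than 2-fold lower, against 8.98%. For Myc this compared different exons of the same gene, but all 12 Myc positions were higher in Dox (+) than in MEF, by ratios of 1.89 to 3.50. For Mnt the call was made on the 5 bp exon, with a ratio of 2.07. The Mnt ratio was 4.62 on the first exon, 1.36 on the last and 1.57 (1.50 to 1.65) over the transcript. The corresponding median was 0.47 for the members and 0.27 for all genes. In these counts and medians Mxd3 was taken on the exon that overlaps Prelid1. On its highest exon free of overlap Mxd3 was at 16.3 RPKM in MEF, 4.25 in Dox (-) and 2.27 in Dox (+). The comparisons share libraries, so they are not independent of each other.

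Of 30 genes that MYC is known to activate, 28 had a positive and 2 a negative log2 fold change between Dox (+) and Dox (-), with a median of 0.74 against 0.23 over all genes. None was called at 4-fold, against 7.05% of genes, and 8 were more than 2-fold higher, against 10.8% of genes. The lists used here were drawn up with earlier results of these data known. Shmt2, a mitochondrial enzyme of one-carbon metabolism, was at 280.2, 100.4 and 299.6 RPKM in MEF, Dox (-) and Dox (+), with a log2 fold change of 1.57. Ldha, lactate dehydrogenase A, was at 2460, 1399 and 3698 RPKM, with 1.40. Tert, at 10.8 and 8.21 RPKM, and Ptma, at 795.0 and 775.7 RPKM, were the 2 that were lower. On the last exon 20 of 22 genes were positive, with a median of 0.54 against 0.05. Measured from MEF instead, 24 of 29 were higher in Dox (+), with a median of 0.55 against 0.27, and their summed RPKM was 21300 in MEF and 20550 in Dox (+), against 13420 in Dox (-).

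The 7 genes that MYC is known to repress were mostly higher in Dox (+) too, 5 of 7, with a median of 0.65 against 0.23 over all genes. Of the 7, 3 were more than 2-fold higher, against 10.8% of genes, and 1 lower, against 11.1%. On the last exon 5 of 6 were positive, with a median of 0.72 against 0.05. Ndrg1, a stress and differentiation gene, was called at 4-fold, with 409.7, 238.9 and 1085 RPKM in MEF, Dox (-) and Dox (+), against 7.05% of genes. On its last exon Ndrg1 was at 28.9 RPKM in Dox (-) and 110.2 in Dox (+), which is under 4-fold. Gadd45a, a growth arrest gene, was at 90.0, 54.3 and 179.1 RPKM, and Ndrg2 at 85.6, 41.3 and 133.8 RPKM. The cyclin-dependent kinase inhibitors of the list were divided. Cdkn1c, at 42.5 and 20.4 RPKM in Dox (-) and Dox (+), and Cdkn1b, at 50.2 and 42.1 RPKM, were lower. Cdkn1a, at 192.1, 1019 and 1602 RPKM in MEF, Dox (-) and Dox (+), and Cdkn2b, at 56.2, 96.3 and 104.9 RPKM, were higher, and are named after their values were seen. Genes known as activated and as repressed by MYC had medians of like sign and size.

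Among 12 genes of DNA replication and mitosis the difference was the reverse, with 10 negative, a median of -1.03 against 0.23 over all genes, and 7 more than 2-fold lower in Dox (+), against 11.1% of genes. Of these, 3 were called at 4-fold, against 7.05% in either direction. On the last exon 9 of 10 were negative, with a median of -1.14 against 0.05. Mki67, the proliferation marker, was at 80.4, 61.3 and 3.17 RPKM in MEF, Dox (-) and Dox (+). Top2a, the topoisomerase of mitotic chromosomes, was at 211.1, 114.1 and 19.1 RPKM, and Ccna2, cyclin A2, at 126.5, 74.5 and 13.4 RPKM. Ccnb1 and Cdk1, the cyclin and kinase of mitotic entry, were also lower, with log2 fold changes of -1.70 and -1.36. Mcm2 and Mcm4, of the replicative helicase, differed by 0.49 and 0.06, the sign of Mcm4 turning to -0.34 on the last exon. All 12 genes were also lower in Dox (-) than in MEF on the highest exon, with a median of -0.68, Rrm2 by only -0.03. On the last exon 11 of 12 were lower, with a median of -0.71, and Rrm2 differed by 0.04. The exons of Mxd3 free of Prelid1 followed the order of most of these genes, MEF above Dox (-) above Dox (+), while Myc did not.

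The 11 coactivators of MYC were all higher in Dox (+) on the highest exon, with a median of 0.48 against 0.23 over all genes. On the last exon 7 were higher and 4 lower, with a median of 0.37 against 0.05. The largest differences were in the paired ATPases Ruvbl2, at 199.8, 137.3 and 386.0 RPKM, and Ruvbl1, at 57.0, 37.1 and 70.0 RPKM, which stayed higher on the last exon (1.37 and 0.72). Trrap and Ccnt1 differed least, by 0.24 and 0.31, and were negative on the last exon. Among 7 corepressor genes used by the MXD proteins 5 were positive on the highest exon, with a median of 0.38 against 0.23 over all genes. On the last exon 2 of 6 were positive, with a median of -0.25 against 0.05. Sin3a, the scaffold that the MXD proteins bind, was called at 4-fold on its highest exon, 1 of 7 genes against 7.05% of all genes. It was at 103.7 and 484.8 RPKM in Dox (-) and Dox (+) there, but differed by 0.23 on the last exon. Sin3b likewise went from 1.06 to -0.20, whereas Sap30 stayed at 0.91 and 0.93. Hdac2, a histone deacetylase of these complexes, was at -0.11.

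Of 10 genes of MYC protein turnover, 5 were higher and 5 lower in Dox (+), with a median of 0.09 against 0.23 over all genes. On the last exon 2 of 6 were higher and 4 lower, with a median of -0.51 against 0.05. Stub1, a ubiquitin ligase, was at 830.4, 614.8 and 888.4 RPKM in MEF, Dox (-) and Dox (+). Aurka, at 68.7, 36.1 and 14.9 RPKM, and Cip2a, at 83.8, 36.4 and 16.5 RPKM, stabilise MYC proteins. Both were more than 2-fold lower in Dox (+) than in Dox (-), 2 of 10 genes against 11.1% of all genes. The remaining network genes Mga and Mlxip differed by -0.40 and -0.13, and Mlxipl was under 0.5 RPKM in every library. Txnip and Arrdc4, targets of MLX complexes, differed by 0.46 and 0.75 on the highest exon and by -0.02 and 0.18 on the last.

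**Figure D5:**
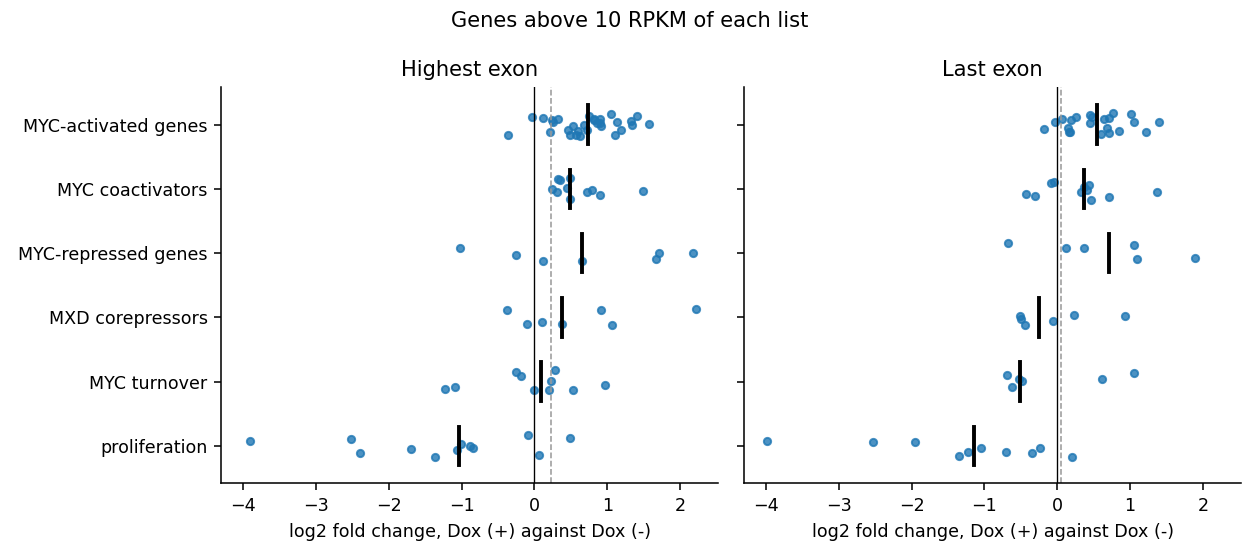
Log2 fold change of each gene above 10 RPKM between Dox (+) and Dox (-), by list, on the highest exon (left) and the last exon (right). Black bars are list medians and dashed lines the median gene, 0.23 and 0.05, and the MYC-activated genes lie mostly to the right of it and the proliferation genes to the left on both levels.

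The 5 genes whose profile over the 3 libraries was most like that of Myc, by Euclidean distance between centred log2(RPKM + 1) values among 11878 coding genes, were Prdx6, Exosc5, P4htm, Dgcr6 and Ppif. Prdx6, a peroxiredoxin, was at 403.9, 352.2 and 941.1 RPKM, and Exosc5, a subunit of the RNA exosome, at 54.8, 48.1 and 129.3 RPKM. With only 3 libraries such a likeness is a description of these values.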

How the data were processed

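RNA had been extracted with Trizol from each culture and made into libraries with the TruSeq RNA kit v2, which does not mark strand. Per the labels, reads were handled with bcl2fastq 2.17.1.14, TopHat2 2.0.10 and bedtools on mm10. The authors deposited 1 RPKM value per exon and library. Of 234718 exons, 228132 matched GENCODE M21 and 6586 did not. Genes of coding, pseudogene and lincRNA types were kept. A further 1 value column could not be matched to a sample and was not used, so comparisons with melanocytes were not made.

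Whole reads were recovered from RPKM, exon length and the depth that gave whole numbers. Ratios were taken from depth-scaled reads, with exact conditional binomial (Clopper-Pearson) intervals. No fold was given at or below 3 reads in both libraries. Calls required more than 10 RPKM in at least 1 of 2 libraries and more than 4-fold (or 2-fold) between them, on the highest exon. Log2 values used a pseudocount of 1 RPKM. First and last exons were compared in coding transcripts of at least 3 exons, with 0.5 added to the reads. Named genes were the 10 members, Mitf, the 5 genes nearest to Myc, and, per list, genes called at 4-fold and the 2 largest differences in each direction, some of which are not reported here. Members and lists were chosen with earlier results of these data known. Calls and intervals were tested on simulated reads. Python 3.11.15, pandas 2.3.3, NumPy 2.4.6, SciPy 1.17.1 and matplotlib 3.10.9 were used.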

Additional observations from a re-analysis of the deposited data

How the results depend on the processing

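Alternatives named after the data were seen were the last exon, the first exon, the highest exon of at least 100 bp and the highest exon that overlaps no other gene. The count of members called between Dox (+) and Dox (-), 0, became 1 with no threshold on RPKM (Mycn) and 2 above a 2-fold difference. Between Dox (+) and MEF it became 1 with no threshold, 2 above 2-fold, and 1 (Mxd3) on the highest exon that overlaps no other gene. The median log2 fold change of the members between Dox (+) and Dox (-), 0.33, was 0.14 with reads summed over 1 transcript and 0.052 with the libraries rescaled. It was -0.17 on the last exon (9 members, without Mxi1) and -0.20 on the highest exon that overlaps no other gene. Under the other alternatives it was 0.20 to 0.34. The median between Dox (-) and MEF, 0.12, was 0.06 to 0.23, and that between Dox (+) and MEF, 0.47, was 0.28 to 0.65, within the counting intervals of the members in the middle. Myc (1.13 to 1.72), Mxi1 (1.01 to 1.80), Mnt (0.18 to 1.15), Mlx (0.32 to 1.42), Mxd1 (-1.19 to -0.16) and Mxd4 (-1.12 to -0.09) kept their sign under every alternative run, Max in 3 of 8, Mxd3 in 6 of 9 and Mycl in 7 of 9. The cause of these moves was not tested. No paired analysis was possible because each condition had 1 library, so no replicate could be left out either, and the depth allows no estimate of the spread between cultures.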
